A study of Mus musculus with 12 samples.

Results

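The unfolded protein response was examined in the mouse adrenal gland through 8 genes, Xbp1, Dnajb9, Dnajc3, Sel1l, Hsp90b1, Atf6, Atf4 and Ddit3, which were taken by name from the 6986 genes that the table pairs with a probeset. Each of the 8 had 1 probeset, and all 8 were among the 4414 genes tested, which had a group mean of at least 4 on the log2 scale in at least 1 group. Adrenal RNA of the KK/HIJ strain (KK, spelled KK/HlJ in the study), used as a model of obesity with diabetes, and of the C57BL/6J strain (C57) was hybridized to Mouse Gene 2.0 ST arrays (Affymetrix) for males (KK-M, C57-M) and females (KK-F, C57-F) given standard chow and killed at 21 weeks of age by the labels, although the methods of the study give a slightly different age. The labels name no transgene and no drug in any group, and all mice went through insulin tolerance and behavioural tests. All mice of a group contributed RNA to a single pool, and 3 arrays were run from each of the 4 pools, so n = 3 counts arrays of 1 pool throughout, p-values measure the spread between arrays, and the spread between mice was not measured.

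The endoplasmic reticulum (ER) folds secreted and membrane proteins, and unfolded protein in its lumen activates the sensors IRE1, PERK and ATF6. IRE1 splices the mRNA of Xbp1 into the form that encodes an active transcription factor, PERK phosphorylates eIF2alpha, which lowers translation in general but raises that of ATF4, and ATF6 is cut in the Golgi to release a transcription factor. XBP1 and ATF6 raise chaperones and the machinery of ER-associated degradation, while ATF4 raises amino acid synthesis and transport genes and, under prolonged stress, Ddit3, which encodes CHOP. In the adrenal, the steroid-making cells of the cortex hold much smooth ER, and the chromaffin cells of the medulla send peptides through the secretory pathway. An expression array measures total mRNA, so the splicing of Xbp1, the cleavage of ATF6 and the translation of Atf4 were not measured.

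Promoters are shown for Dnajb9 and Xbp1, the pair called in females and in the mean strain difference, and for Hsp90b1 and Dnajc3, which hold the ER stress response element. The sequences are RefSeq's (GRCm38.p6), run 5′ to 3′ on the strand of the gene, and cover 250 bases before and 50 bases after the annotated start. Capitals mark the ER stress response element, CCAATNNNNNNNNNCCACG, on either strand, and every other copy of its CCACG part, which is CGTGG on the opposite strand.
Dnajb9, chr12:44210019-44210318, minus strand: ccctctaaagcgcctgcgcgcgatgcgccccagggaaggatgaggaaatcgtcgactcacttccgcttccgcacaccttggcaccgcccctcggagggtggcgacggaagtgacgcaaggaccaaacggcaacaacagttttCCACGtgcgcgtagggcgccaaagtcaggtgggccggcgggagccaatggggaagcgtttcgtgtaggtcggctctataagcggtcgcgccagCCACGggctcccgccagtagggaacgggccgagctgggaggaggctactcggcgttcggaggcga
Xbp1, chr11:5520391-5520690, plus strand: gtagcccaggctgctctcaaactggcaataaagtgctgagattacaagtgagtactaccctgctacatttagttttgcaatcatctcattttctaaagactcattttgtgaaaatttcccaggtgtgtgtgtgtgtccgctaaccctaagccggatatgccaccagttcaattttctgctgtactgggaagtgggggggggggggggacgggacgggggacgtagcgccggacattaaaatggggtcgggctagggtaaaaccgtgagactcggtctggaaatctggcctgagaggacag
Hsp90b1, chr10:86705395-86705694, minus strand: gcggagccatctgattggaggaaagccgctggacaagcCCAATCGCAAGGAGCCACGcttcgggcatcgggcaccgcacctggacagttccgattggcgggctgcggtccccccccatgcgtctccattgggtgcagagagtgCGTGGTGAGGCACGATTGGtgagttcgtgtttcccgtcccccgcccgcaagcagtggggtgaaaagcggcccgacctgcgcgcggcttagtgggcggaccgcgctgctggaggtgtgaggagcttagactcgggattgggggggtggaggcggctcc
Dnajc3, chr14:118937682-118937981, plus strand: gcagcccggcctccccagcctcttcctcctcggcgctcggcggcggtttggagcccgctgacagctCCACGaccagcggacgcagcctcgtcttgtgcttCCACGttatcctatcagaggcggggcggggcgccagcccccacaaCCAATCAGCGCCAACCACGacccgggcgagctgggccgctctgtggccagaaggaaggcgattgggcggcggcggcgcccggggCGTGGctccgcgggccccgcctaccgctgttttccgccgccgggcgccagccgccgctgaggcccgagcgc
A RefSeq promoter was matched for 7 of the 8 genes, Atf6 being the other. The complete element was found in Hsp90b1, once on each strand, with first bases 212 and 107 bases before the start, and in Dnajc3, 105 bases before the start, against 0.119% of the 32851 promoters of the same length. The CCACG part, which every copy of the element contains, was found in 5 of the 7 (Dnajb9, Hsp90b1, Dnajc3, Sel1l and Atf4), and in 32.8% of all promoters. The core ACGTG, which can overlap CCACG and does so in Dnajb9 and Dnajc3, was found in 3 of the 7 (Dnajb9, Dnajc3 and Ddit3), and in 19.6% of all. The element TGATGNAA, to which ATF4 binds with a partner, was found in none of the 7, and in 3.97% of all. These are matches of letters in 1 window per gene, and binding was not measured.

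Strain differences among the 8 genes were few, and those called were lower values in KK. A gene was called when it differed by at least 1.4-fold with a Benjamini-Hochberg adjusted p under 0.05 in the limma fit over all tested genes. In KK-M v C57-M, 2 of the 8 were called, Dnajb9 and Dnajc3, both lower, where 20.4% of all tested genes were called in either direction and 13.4% were called lower. In KK-F v C57-F, 2 of the 8 were called, Dnajb9 and Xbp1, both lower, where 18.6% of all tested genes were called and 9.06% were called lower. These 2 of 8, which is 25%, lay near the share among all tested genes in either direction. The median log2 fold change of the 8 was -0.35 in males, beside -0.07 for all tested genes, and -0.13 in females, beside 0.03. Both sexes of KK therefore had Dnajb9 in common among the called genes, and Hsp90b1, Atf6, Ddit3, Atf4 and Sel1l were called in neither.

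**Figure D1:**
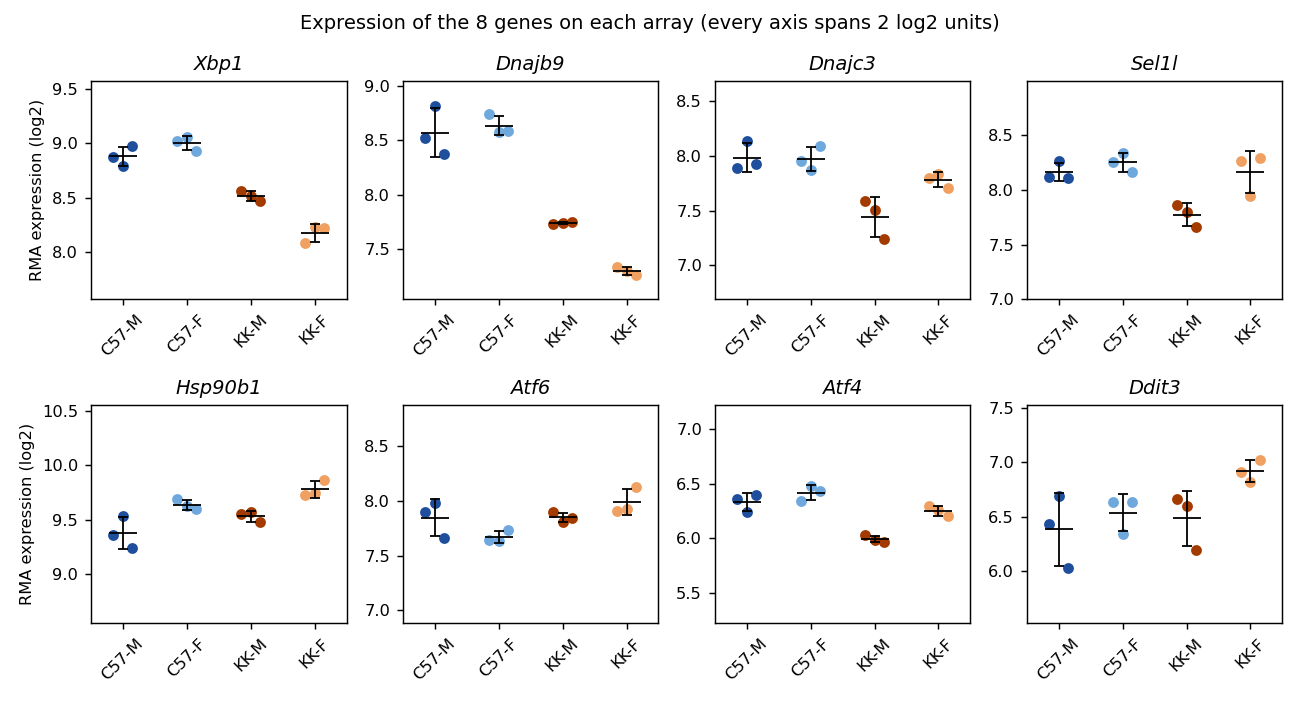
Deposited expression (log2 RMA value, vertical axis) of the 8 genes in the 4 groups (horizontal axis), with 1 point per array and black bars for the mean ± SD of 3 arrays. The KK arrays of Dnajb9 and Xbp1 all sit below the C57 arrays, while those of Hsp90b1 lie within or slightly above the C57 range.

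Xbp1 encodes the transcription factor of the IRE1 branch. Its log2 values were 8.88, 8.79 and 8.97 on the C57-M arrays, 9.02, 9.06 and 8.93 on the C57-F arrays, 8.56, 8.51 and 8.47 on the KK-M arrays and 8.08, 8.23 and 8.22 on the KK-F arrays. All 6 KK arrays were below all 6 C57 arrays, and the KK-F arrays were below the KK-M arrays. In females Xbp1 fell by 0.82 ± 0.08 on the log2 scale (SE, 1.77-fold, limma adjusted p = 1e-05) in KK against C57. In males the difference was -0.37 ± 0.08 (adjusted p = 0.00473), past the p threshold but under the 1.4-fold threshold, so it was not called. After quantile normalization of the table again it was -0.22 (adjusted p = 0.0703). The strain difference was larger in females than in males by 0.46 ± 0.12 in the interaction test (adjusted p = 0.0185), again under the fold threshold. Without C57-M replicate 3, C57-F replicate 3 or KK-F replicate 2 it passed both thresholds, and over the 12 arrays left out in turn it was 0.41 to 0.50.

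Dnajb9 encodes ERdj4, an ER co-chaperone of BiP that is a known target of spliced XBP1 and takes part in ER-associated degradation. The arrays gave log2 values of 8.52, 8.82 and 8.37 on the C57-M arrays, 8.73, 8.58 and 8.58 on the C57-F arrays, 7.73, 7.74 and 7.75 on the KK-M arrays and 7.34, 7.31 and 7.27 on the KK-F arrays. The gap between the strains exceeded the spread of the arrays in both sexes, and the C57-M arrays were the most scattered. Dnajb9 fell by 0.83 ± 0.10 (1.78-fold, limma adjusted p = 6.64e-05) in KK males and by 1.33 ± 0.10 (2.51-fold, limma adjusted p = 1.19e-06) in KK females on the log2 scale. Both calls held under all the alternatives run. The strain difference was larger in females by 0.50 ± 0.15 in the interaction test (adjusted p = 0.0371), which passed the fold threshold of 0.49 on the log2 scale narrowly. That call was lost when any 1 of the 12 arrays except C57-M replicate 2 was left out, with adjusted p from 0.0519 to 0.0789 where it was lost and values of 0.40 to 0.62.

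The group means of Dnajb9 fell in the order C57-F (8.63 ± 0.09, SD, n = 3 arrays), C57-M (8.57 ± 0.23), KK-M (7.74 ± 0.01) and KK-F (7.30 ± 0.04). The order of Xbp1 was the same, C57-F (9.002 ± 0.06), C57-M (8.88 ± 0.09), KK-M (8.51 ± 0.05) and KK-F (8.18 ± 0.08). In both genes the C57 neighbours did not differ beyond their spread (limma adjusted p = 0.693 for Dnajb9 and 0.298 for Xbp1), and the KK neighbours differed by 0.43 ± 0.10 (adjusted p = 0.00684) and 0.34 ± 0.08 (adjusted p = 0.0079), under the fold threshold. The log2 values of the pair correlated with Pearson r = 0.94 over the 12 arrays, which come from only 4 pools and share the strain difference.

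Dnajc3 encodes p58IPK, an ER-resident co-chaperone of BiP also known as an inhibitor of PERK. Values of this gene were 7.89, 8.13 and 7.93 on the C57-M arrays, 7.96, 7.87 and 8.09 on the C57-F arrays, 7.59, 7.50 and 7.24 on the KK-M arrays and 7.80, 7.84 and 7.71 on the KK-F arrays. KK-M was the low group, and its arrays overlapped those of no other group. Dnajc3 fell by 0.54 ± 0.11 on the log2 scale (1.45-fold, limma adjusted p = 0.0021) in KK-M against C57-M, while the female difference was -0.19 ± 0.11 (adjusted p = 0.216). The difference between the sexes in this respect did not pass its own test (interaction -0.35 ± 0.15, adjusted p = 0.129). The male call fell under the fold threshold without C57-M replicate 2 (-0.47) and without KK-M replicate 3 (-0.44), and after quantile normalization of the table again.

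Sel1l encodes the adaptor of the HRD1 ubiquitin ligase, which sends misfolded ER proteins to degradation. On the log2 scale it measured 8.12, 8.26 and 8.11 on the C57-M arrays, 8.26, 8.34 and 8.17 on the C57-F arrays, 7.86, 7.80 and 7.66 on the KK-M arrays and 8.26, 7.95 and 8.29 on the KK-F arrays. As with Dnajc3, KK-M was the low group, and KK-F replicate 2 lay apart from the other KK-F arrays. The differences were -0.39 ± 0.11 against C57-M (adjusted p = 0.0132) and -0.39 ± 0.11 against KK-F (adjusted p = 0.0129), both under the fold threshold. Without KK-F replicate 2 the KK-M v KK-F difference was -0.50 and was called, while after quantile normalization again the differences were -0.24 (adjusted p = 0.108) and -0.29 (adjusted p = 0.0572).

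Hsp90b1 encodes GRP94, the HSP90 chaperone of the ER lumen. Its log2 values were 9.37, 9.54 and 9.24 on the C57-M arrays, 9.69, 9.63 and 9.60 on the C57-F arrays, 9.55, 9.57 and 9.48 on the KK-M arrays and 9.72, 9.74 and 9.87 on the KK-F arrays. The strain differences were 0.15 ± 0.09 in males (adjusted p = 0.229) and 0.14 ± 0.09 in females (adjusted p = 0.269), and the male arrays overlapped while the KK-F arrays lay just above the C57-F arrays. After quantile normalization of the table again they were 0.33 (adjusted p = 0.0065) and 0.39 (adjusted p = 0.00215), past the p threshold and still under the fold threshold. Females had higher values than males in both strains, by 0.26 ± 0.09 in C57 (adjusted p = 0.0446) and by 0.25 ± 0.09 in KK (adjusted p = 0.054), differences under the fold threshold.

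Atf6 encodes the membrane-bound transcription factor of the third branch. Array values were (log2) 7.90, 7.99 and 7.66 on the C57-M arrays, 7.65, 7.64 and 7.74 on the C57-F arrays, 7.90, 7.81 and 7.84 on the KK-M arrays and 7.91, 7.93 and 8.13 on the KK-F arrays. The male groups overlapped (difference 0.00 ± 0.10, adjusted p = 0.989), and the KK-F arrays were above the C57-F arrays by 0.32 ± 0.10 (adjusted p = 0.0274), under the fold threshold.

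Atf4 encodes the transcription factor of the PERK branch, which is controlled largely at translation. For this gene the log2 values were 6.36, 6.24 and 6.39 on the C57-M arrays, 6.34, 6.48 and 6.43 on the C57-F arrays, 6.03, 5.99 and 5.97 on the KK-M arrays and 6.29, 6.26 and 6.21 on the KK-F arrays. The 3 KK-M arrays were the lowest of the 12. The differences were -0.34 ± 0.08 in males (adjusted p = 0.00559), under the fold threshold, and -0.17 ± 0.08 in females (adjusted p = 0.132).

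Ddit3, whose product CHOP promotes cell death under prolonged ER stress, had the widest scatter. Values on the log2 scale were 6.44, 6.69 and 6.03 on the C57-M arrays, 6.63, 6.35 and 6.64 on the C57-F arrays, 6.66, 6.6 and 6.20 on the KK-M arrays and 6.91, 6.82 and 7.02 on the KK-F arrays. The KK-F arrays were the highest of the 12. The differences of 0.10 ± 0.16 in males (adjusted p = 0.694) and 0.38 ± 0.16 in females (adjusted p = 0.102) did not pass the test.

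**Figure D2:**
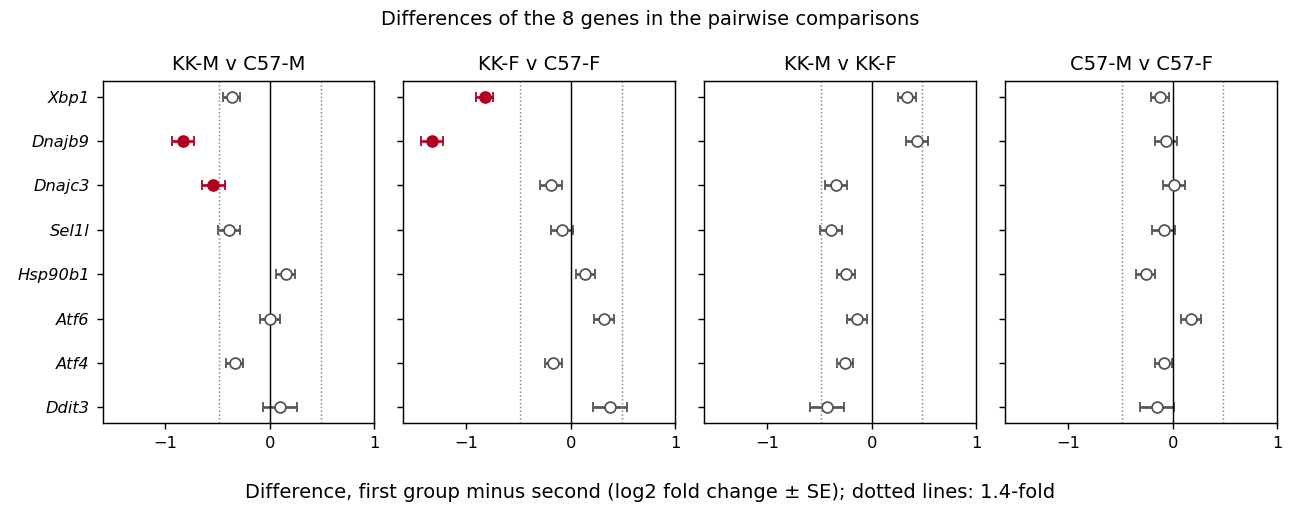
Difference between groups (horizontal axis, log2 fold change of the first group over the second, bars ± SE of the limma fit) for the 8 genes (vertical axis) in the 4 pairwise comparisons, with filled red points for called genes and dotted lines at 1.4-fold. The called points are Dnajb9 and Dnajc3 in males and Dnajb9 and Xbp1 in females, all to the left of 0, and the comparisons of the sexes have none.

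Between the sexes none of the 8 genes was called on the values as deposited. In KK-M v KK-F 0 of 8 were called, where 18.8% of all tested genes were, and in C57-M v C57-F 0 of 8 were called, where 7.07% of all were. Within KK, 5 of the 8 (Xbp1, Dnajb9, Dnajc3, Sel1l and Atf4) had a limma adjusted p under 0.05 but were under the fold threshold, Dnajb9 and Xbp1 with higher values in males and the other 3 with higher values in females. After quantile normalization again Dnajb9 and Xbp1 kept a p under 0.05, and Dnajc3 (adjusted p = 0.101), Sel1l (0.0572) and Atf4 (0.31) did not. Dnajb9 then also passed the fold threshold and was called (0.57, adjusted p = 0.00048). Hsp90b1 gained a p under 0.05 (-0.37, adjusted p = 0.00327) but stayed under the fold threshold. With each array centred on its median Sel1l kept a p under 0.05 (adjusted p = 0.0424), and Dnajc3 (0.103) and Atf4 (0.127) did not. Dnajb9 was called in that setting too (0.52, adjusted p = 0.00207). Within C57, 1 of the 8, Hsp90b1, had an adjusted p under 0.05 and was under the fold threshold. In the strain by sex interaction 1 of the 8, Dnajb9, was called, where 13.9% of all were. The mean strain difference over both sexes called 2 of the 8, Dnajb9 (-1.08 ± 0.07, adjusted p = 1.37e-07) and Xbp1 (-0.60 ± 0.06, adjusted p = 3.39e-06), where 15.5% of all were called, and the mean sex difference called 0 of the 8, where 8.61% of all were. When strain and sex were fitted on the 4 pool means, so that pools and not arrays were the units, the call of Dnajb9 was kept (adjusted p = 0.0155) and that of Xbp1 was not (adjusted p = 0.103). With 1 pool per group, that fit left 1 residual degree of freedom, which is the strain by sex interaction. It therefore does not measure the spread between pools of a group.

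Other genes of the response were taken from 5 lists of ER and stress genes. Hspa5 (BiP), Eif2ak3 (PERK), Calr, Pdia4, Syvn1 and Herpud1 were among the listed genes absent from the 6986, so the response was covered only in part. The lists held 65 tested genes beside the 8. Of these, 10 were called lower and 0 higher in KK-M v C57-M (15.4%), and 10 lower and 1 higher in KK-F v C57-F (16.9%). Both shares were below those of all tested genes in either direction (20.4% and 18.6%). Counted in the lower direction alone, 10 of 65 is 15.4% in each sex, where 13.4% of all tested genes were called lower in males and 9.06% in females. The median log2 fold changes of the 65 were -0.26 and -0.10, beside -0.07 and 0.03 for all tested genes.

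**Figure D3:**
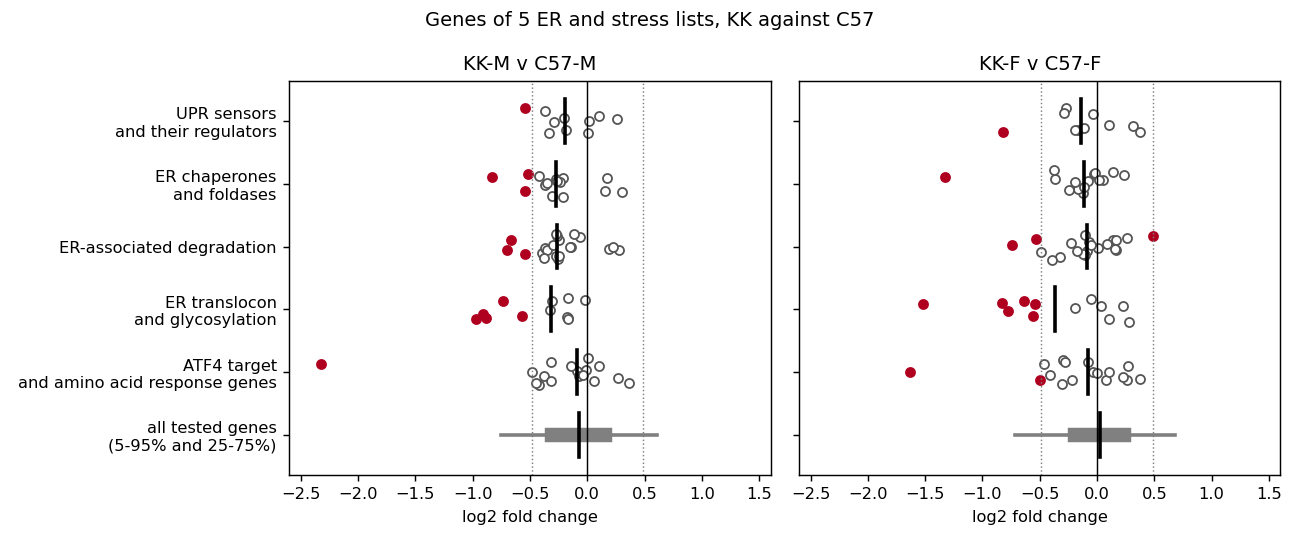
Strain differences (horizontal axis, log2 fold change, KK over C57) of the tested genes in 5 lists (vertical axis, the 8 genes included where a list holds them) for males and females, with filled red points for called genes, black bars for medians and grey bars for the 5-95% and 25-75% ranges of all 4414 tested genes. The translocon and glycosylation list has the lowest medians, -0.32 in males and -0.37 in females.

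The sensors and their regulators beside the 8 genes numbered 5 (Ern1, Ppp1r15b, Rtcb, Tmbim6 and Creb3l3), and 0 of 5 were called in any comparison. Their strain differences ranged from -0.29 to 0.26 in males and from -0.29 to 0.10 in females. Of 12 other ER chaperones and foldases, 1 was called lower in males (8.33%) and 0 in females, below the shares of all tested genes. This was Tmx1, a membrane-bound thioredoxin, which fell by 0.51 ± 0.11 (limma adjusted p = 0.00342) in KK-M against C57-M, and whose call fell under the fold threshold without C57-M replicate 2 (-0.44) or KK-M replicate 3 (-0.43), and after quantile normalization again (-0.39).

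Of 20 other genes of ER-associated degradation, 3 were called lower in males (Man1a, Fam8a1 and Ube2g1), and 2 lower (Derl1 and Nploc4) and 1 higher (Man1a) in females. The share called in either direction was 15% in each sex, below the 20.4% and 18.6% of all tested genes. Fam8a1, a component of the HRD1 ligase, fell by 0.67 ± 0.11 (adjusted p = 4e-04) in KK males, and Ube2g1, a ubiquitin-conjugating enzyme, fell by 0.55 ± 0.10 (adjusted p = 0.000872). Derl1, a membrane protein of the export channel, had values of 9.97, 9.98 and 9.99 on the C57-F arrays and 9.14, 9.46 and 9.12 on the KK-F arrays, and fell by 0.74 ± 0.10 (adjusted p = 0.000139). Nploc4, a cofactor of the p97 ATPase, fell by 0.53 ± 0.08 (adjusted p = 0.000376) in KK females. The call of Ube2g1 fell under the fold threshold without KK-M replicate 3 (-0.47), and that of Nploc4 without C57-F replicate 2 (-0.48). Both calls were also lost after quantile normalization again (Ube2g1 -0.40, Nploc4 -0.40).

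Man1a, a mannosidase that trims N-glycans, differed most between the sexes. Its values (log2) were 6.58, 6.52 and 6.53 on the C57-M arrays, 7.57, 7.61 and 7.45 on the C57-F arrays, 6.12, 5.78 and 5.61 on the KK-M arrays and 8.06, 8.03 and 8.02 on the KK-F arrays. Females were above males in both strains, by 2.20 ± 0.11 in KK (4.59-fold, limma adjusted p = 2.4e-08) and by 1.004 ± 0.11 in C57 (2.01-fold, adjusted p = 2.57e-05). Against C57 it was lower in KK males by 0.70 ± 0.11 (adjusted p = 0.000423) and higher in KK females by 0.49 ± 0.11 (adjusted p = 0.00517), and the interaction was -1.19 ± 0.16 (adjusted p = 0.000337). The female strain call passed the fold threshold narrowly and was lost without C57-F replicate 3 (0.44) or KK-F replicate 1 (0.48), and with each array centred on its median (0.44). Yod1, a deubiquitinase of this pathway, was higher in males of both strains, by 0.63 ± 0.13 in KK (adjusted p = 0.00242) and 0.53 ± 0.13 in C57 (adjusted p = 0.00739), the C57 call being lost without C57-M replicate 2 (0.41) or C57-F replicate 2 (0.44). Edem3, which also trims mannose from misfolded glycoproteins, was lower by 0.59 ± 0.12 in KK males than in KK females (adjusted p = 0.00207), a call lost without KK-M replicate 2 (-0.43) and after quantile normalization again (-0.47).

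The translocon and glycosylation genes, which bring new proteins into the ER, attach glycans and load them for export, were the list with the most calls. Of 12 genes, 5 were called lower in males (41.7%) and 6 in females (50%), with 0 higher in either, where 13.4% and 9.06% of all tested genes were called lower. Dad1, a subunit of the oligosaccharyltransferase, had values of 10.17, 10.15 and 10.20 on the C57-M arrays, 9.78, 9.90 and 9.99 on the C57-F arrays, 9.42, 9.47 and 9.43 on the KK-M arrays and 8.53, 8.40 and 8.18 on the KK-F arrays. The 4 groups did not overlap, and KK-F was the lowest. Dad1 fell by 1.52 ± 0.10 (2.87-fold, limma adjusted p = 1.81e-07) in KK females against C57 females. In males KK was also lower, with group means of 9.44 in KK-M and 10.17 in C57-M. Dad1 was higher by 1.07 ± 0.10 in KK males than in KK females (adjusted p = 3.85e-06), and its strain difference was larger in females by 0.79 ± 0.14 (adjusted p = 0.00194).

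Sar1b, the GTPase that starts the coat of ER export vesicles, fell by 0.97 ± 0.11 (adjusted p = 3.57e-05) in KK males and by 0.78 ± 0.11 (adjusted p = 0.000223) in KK females. Tram2, a translocon-associated protein, fell by 0.89 ± 0.11 (adjusted p = 5.11e-05) in KK males and by 0.83 ± 0.11 (adjusted p = 8.77e-05) in KK females. Srp54c, a subunit of the signal recognition particle with near-identical copies in the genome, fell by 0.91 ± 0.20 (adjusted p = 0.00421) in KK males against C57 males and was lower by 1.01 ± 0.20 in KK males than in KK females (adjusted p = 0.00215), and its probeset may not separate the copies.

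Of 16 other ATF4 target and amino acid response genes, 1 was called lower in males (6.25%) and 2 in females (12.5%), below the 20.4% and 18.6% of all tested genes called in either direction. Eprs, which encodes the glutamyl-prolyl-tRNA synthetase, had log2 values of 9.56, 9.56 and 9.48 on the C57-M arrays, 9.29, 9.08 and 9.26 on the C57-F arrays, 7.59, 7.15 and 6.89 on the KK-M arrays and 7.74, 7.43 and 7.55 on the KK-F arrays. It fell by 2.32 ± 0.15 (5-fold, limma adjusted p = 1.89e-07) in KK males and by 1.64 ± 0.15 (3.11-fold, adjusted p = 3.96e-06) in KK females. No other gene of this list was called in both sexes. Ddr2, a collagen receptor, fell by 0.50 ± 0.15 (adjusted p = 0.0206) in KK females, a call lost without C57-F replicate 2 (-0.47) or KK-F replicate 3 (-0.35). Xpot, the exporter of tRNA from the nucleus, and Tars, the threonyl-tRNA synthetase, were lower in KK males than in KK females, by 0.98 ± 0.11 (adjusted p = 2.15e-05) and 0.73 ± 0.14 (adjusted p = 0.00185).

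In C57, Atf3, a stress transcription factor, was higher in males by 0.49 ± 0.12 (adjusted p = 0.00909), and Rab32, a small GTPase of the ER and mitochondria, was lower in males by 0.50 ± 0.14 (adjusted p = 0.0146). Rab32 was dim, with group means of 4.01 in C57-M and 4.51 in C57-F, close to the filter level of 4. Atf3 lost its call without C57-M replicate 3 (0.39) or C57-F replicate 3 (0.42), and Rab32 without C57-M replicate 3 (-0.37), C57-F replicate 3 (-0.39) or C57-F replicate 1 (-0.48). Both were also lost after quantile normalization again (Atf3 0.46, Rab32 -0.46), and Rab32 with each array centred on its median (-0.46) and in a fit of the 2 C57 groups alone (adjusted p = 0.07).

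**Figure D4:**
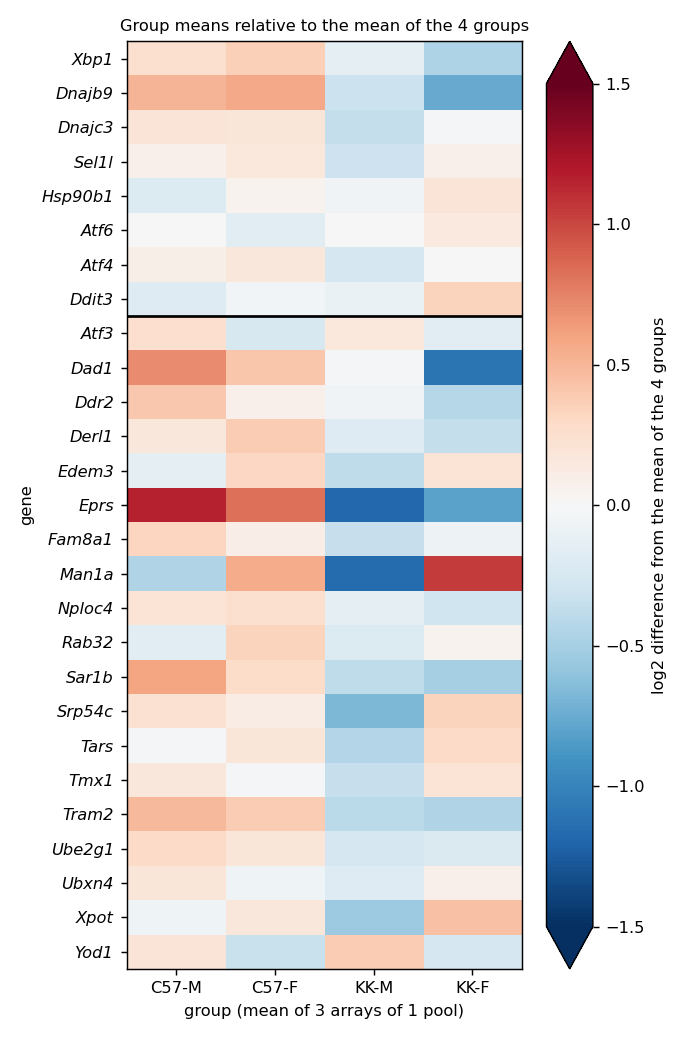
Group means of the 8 genes (above the line) and the 19 other named ER and stress genes (below it) in the 4 groups (horizontal axis), coloured by the log2 difference from the mean of the 4 groups. Xbp1, Dnajb9, Dad1, Sar1b, Tram2 and Eprs are blue in at least 1 KK group and red in both C57 groups, while Man1a is red in the 2 female groups.

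Whether the strains differ in sequence under the probes, which could also shift a value, was not tested. In whole adrenal RNA, fewer cells of a type and less RNA per cell cannot be told apart, and several cell type marker lists moved with strain. Their summed levels (log2 of the sum of the linear values, per array) are given as ranges. For the counts of every list below, 13.4% of all tested genes were called lower and 7.05% higher in KK-M v C57-M. In KK-F v C57-F 9.06% were called lower and 9.56% higher. The adrenal cortex list (Cyp11b1, Cyp11b2, Dab2 and Vsnl1, all above 4 in every group) summed to 13.20 to 13.33 in C57 and 12.84 to 13.06 in KK, with 1 of 4 genes called lower in males and 2 of 4 in females. The chromaffin list summed to 12.95 to 13.33 in C57 and 13.51 to 13.87 in KK, with 9 of 12 genes called higher in each sex. Markers of both parts of the gland, the cortex and the medulla, were therefore high in all 4 groups.

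Genes on the marker lists of other tissues were also present. The hepatocyte list summed to 10.66 to 10.72 in C57-M, 11.34 to 11.40 in C57-F and 8.32 to 9.04 in KK, with 12 of 17 tested genes called lower in KK of each sex and 1 called higher in males. In C57-M v C57-F 8 of 17 were called lower and 1 higher, where 7.07% of all tested genes were called. The adipocyte list was measured through Slc2a4, Trarg1, Gpd1, Pnpla3, Letmd1, Acot2 and Dio2 only. Adipoq, Plin1, Fabp4, Lep and Ucp1 were among its genes absent from the table. It summed to 10.10 to 10.32 in C57, 9.71 to 9.78 in KK-M and 8.98 to 9.11 in KK-F, with 4 of 7 genes called lower in males and 7 of 7 in females. Slc2a4 went the other way in males (0.41, limma adjusted p = 0.0298), under the fold threshold. Between the strains these lists followed the same direction as Dnajb9 and Xbp1. The sum of the adipocyte list was also lower in KK females than in KK males. That of the hepatocyte list was lower in C57 males than in C57 females, where Dnajb9 and Xbp1 did not differ beyond their spread.

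The plasma and B cell list, a type rich in Xbp1, summed to 8.24 to 8.46 in C57 and 7.57 to 7.98 in KK. In males 1 of 6 genes was called lower and in females 2 of 6, where 13.4% and 9.06% of all tested genes were. Irf4, Cd79b and Cr2 were under 4 in both KK groups, Irf4 and Cr2 also in C57-M, and Cd79b and Cr2 also in C57-F. The skeletal muscle list summed to 10.35 to 10.56 in KK-M and 7.62 to 8.18 in the other groups, with 11 of 11 genes called higher in KK males, both against C57 males and against KK females. Of all tested genes, 7.05% and 7.27% were called higher in these comparisons. KK-M was also the group in which Dnajc3, Sel1l and Atf4 were lowest. The macrophage list (Cd68, Lyz2, Lgals3 and Fcer1g) summed to 10.77 to 10.85 in C57-M, 9.74 to 9.86 in C57-F, 10.09 to 10.33 in KK-M and 10.21 to 10.62 in KK-F. Of its genes, 2 of 4 were called lower in KK-M v C57-M, and 3 of 4 higher and 1 lower in KK-F v C57-F. In C57-M v C57-F 4 of 4 were called higher, where 4.33% of all tested genes were. In this list only Fcer1g was called lower in KK of both sexes, and the exocrine pancreas genes Rnase1 and Nr5a2 were under 4 in all 4. The part of these cell types in the values of the 8 genes was not tested.

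The genes most like each of the 8 over the 12 arrays were listed by Pearson r of log2 values, as a description over 4 pools. Dnajb9 was followed most closely by Cyc1, the cytochrome c1 of complex III (r = 0.981), Cnpy2 (0.98) and Plpp1 (0.98). Xbp1 was followed by Atp5b, a subunit of the mitochondrial ATP synthase (0.978), Gpd1, which is also on the adipocyte list (0.976), and Lman2, a cargo receptor of the secretory pathway (0.975). Atf4 was followed by Mcu (0.959), Uggt1 (0.958), which checks glycoprotein folding in the ER, and Acaca (0.957). The closest gene was Tmem70 for Dnajc3 (0.973), Sap30l for Sel1l (0.953), Micu2 for Ddit3 (0.911), Mtrr for Hsp90b1 (0.905) and Fzd3 for Atf6 (0.894).

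Among the 8 genes themselves, Dnajc3, Sel1l and Atf4, which were lowest in KK-M, the group set apart by the muscle list, correlated with r of 0.78 to 0.82. KK-M is a single pool, and whether these traits of it are related was not tested. Hsp90b1, Ddit3 and Atf6 had their highest group means in KK-F. Their r was 0.85 for Hsp90b1 and Ddit3, 0.66 for Atf6 and Ddit3, and 0.41 for Hsp90b1 and Atf6. Dnajb9 and Xbp1 correlated negatively with Hsp90b1 (r = -0.49 and -0.55), Ddit3 (r = -0.47 and -0.62) and Atf6 (r = -0.58 and -0.73).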

How the data were processed

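Adrenal RNA pools were hybridized to 12 arrays, and the authors used Partek software for robust multi-array averaging (RMA), which corrects background, equalizes the distributions of the arrays and summarizes probes, and deposited the probeset values on the log2 scale. RMA compresses low values, so folds of dim genes are understated. The table used here held 16378 probesets. The platform annotation paired 7358 with 1 gene and 456 with several, and 8564 were unnamed here. By RefSeq gene ID 7310 were matched, 7277 of them on chromosomes 1 and 10 to 15, so most other genes were not analysed here. For 284 genes with several probesets the brightest was kept. Group means were fitted with limma 3.58.1 (R 4.3.3, 8 residual degrees of freedom) for 4414 genes with a group mean of at least 4. Benjamini-Hochberg adjustment ran over the 4 pairwise comparisons together and over each other contrast alone. The fit was tested on simulated data. Named genes were the 8, up to 3 called, non-overlapping genes per list and comparison with the largest change, and the 3 genes most like each of the 8. The 8 genes and the lists were chosen with earlier results of these data known. Filters, normalization, variance model, block, fold threshold, probeset averaging and left-out arrays were varied. Arrays hold no read depth, and their number limits the precision.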

Additional observations from a re-analysis of the deposited data

Results flagged for a closer look

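The strain difference differed between males and females, by the interaction test of the limma fit (difference in males minus difference in females, log2 scale), in 10 genes, 9 of them named above and Ubxn4, an ER membrane protein of the degradation list. Xbp1 was flagged by its adjusted p alone and was under the fold threshold. Beside Dnajb9 and Xbp1, the flagged genes were 8 of the 65 other list genes (12.3%), where 13.9% of all tested genes were called in the interaction. The strain difference was smaller in size in males for Dnajb9 (0.50, adjusted p = 0.0371), Xbp1 (0.46, adjusted p = 0.0185) and Dad1 (0.79, adjusted p = 0.00194), which were lower in KK. The values in the other direction were Man1a -1.19 (adjusted p = 0.000337), Srp54c -1.14 (adjusted p = 0.0174), Xpot -0.75 (adjusted p = 0.005), Tmx1 -0.75 (adjusted p = 0.00596), Eprs -0.69 (adjusted p = 0.0398), Ubxn4 -0.52 (adjusted p = 0.00737) and Fam8a1 -0.49 (adjusted p = 0.0408). When each of the 12 arrays was left out in turn, the interaction call was lost for Dnajb9 without 11 of them, for Eprs without 10 (values -0.88 to -0.53), for Fam8a1 without 10 (-0.58 to -0.40) and for Ubxn4 without 1, KK-F replicate 2 (-0.48). After quantile normalization again the calls of Eprs (-0.51), Fam8a1 (-0.33) and Ubxn4 (-0.36) were lost, as they were with each array centred on its median (-0.64, -0.45 and -0.47), and those of Dnajb9, Eprs and Fam8a1 were lost with no filter on low values. Groups of 3 arrays were too small for a search for single arrays that stand apart.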

How the results depend on the processing

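Dnajb9 and Xbp1 were called in KK-F v C57-F under all the alternatives run. With no fold threshold the calls among the 8 genes were 3 in KK-F v C57-F (with Atf6), 5 in KK-M v C57-M, 5 in KK-M v KK-F, 1 in C57-M v C57-F, 2 in the interaction, 5 in the mean strain and 3 in the mean sex difference. Over all 4414 tested genes this setting gave 1457 calls in KK-F v C57-F, 1600 in KK-M v C57-M, 1523 in KK-M v KK-F and 730 in C57-M v C57-F. It gave 748 in the interaction, 2006 for mean strain and 1449 for mean sex. Among the 8 genes, quantile normalization again gave 1 call in KK-M v C57-M, 1 in KK-M v KK-F (Dnajb9) and 2 in the interaction. Centring each array on its median gave 1 in KK-M v KK-F (Dnajb9) and 2 in the interaction, and no filter gave 0 in the interaction. Quantile normalization shifted the median of all genes by 0.12 in KK-M v KK-F and 0.13 in the interaction, and turned the split of higher and lower calls from 321 and 510 to 497 and 312 in KK-M v KK-F, from 311 and 591 to 406 and 415 in KK-M v C57-M and from 168 and 444 to 292 and 257 in the interaction. Centring gave 443 and 352 in KK-M v KK-F, and for mean sex the split went from 204 and 176 to 267 and 143 (quantile) and 267 and 137 (centred). The cause was not tested. On the 4 pool means the mean strain difference called 1 of the 8, with 289 genes in all and 10 for mean sex. Leaving out 1 array gave 1 to 2 calls in KK-M v C57-M, 0 to 1 in KK-M v KK-F and 0 to 1 in the interaction. Same-numbered arrays did not deviate together (3 of 18 pairs had r over 0.1), and the replicate block left 2 calls in KK-M v C57-M and the counts of the 8 in all other comparisons as they were, and lost the interaction call of Fam8a1.

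Values that changed sign were all uncalled. The Hsp90b1 interaction was -0.0628 after quantile normalization. With 1 array left out, the lowest and highest values were -0.0571 and 0.0893 for that interaction, -0.0925 and 0.0717 for Atf6 in KK-M v C57-M, -0.0169 and 0.0651 for Atf6 in the mean sex difference, -0.0794 and 0.2523 for Ddit3 in KK-M v C57-M, -0.3042 and 0.0274 for Ddit3, -0.1872 and 0.0346 for Dnajb9 and -0.0641 and 0.0706 for Dnajc3 in C57-M v C57-F, and -0.1481 and 0.0246 for Sel1l in KK-F v C57-F.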
